A study of Mus musculus with 12 samples.

Results

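Hypoxia and glycolysis genes were followed in 12 flank tumours grown from 4T1 cells, a mammary carcinoma line of BALB/c origin, in BALB/c mice. The set holds 38 genes picked by symbol, of which 20 act in glucose uptake, glycolysis and lactate handling and 18 are other targets of the hypoxia-inducible factors (HIF). All 38 were found among the 18433 genes of the table, and all 38 were among the 14144 genes abundant enough to test. The tumours form 4 arms with 3 sequenced tumours each. The combination arm received an antibody that blocks the checkpoint receptor PD-1, given intraperitoneally, together with DSF by mouth. The DSF arm received the oral drug alone, the anti-PD-1 arm the antibody alone, and the control arm is labelled with no treatment. The abbreviation DSF commonly stands for disulfiram, which inhibits aldehyde dehydrogenase, but the labels do not spell it out. Mice were randomised with 5 per arm, and doses, schedules and ages are not given in the sources used here. Each library was taken as the tumour of a separate mouse, so p-values measure the spread between these tumours, all of which grew from 1 cell line under the skin and not in the mammary gland.

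When oxygen is scarce, the prolyl hydroxylases that mark HIF-alpha subunits for destruction slow down, and HIF-alpha pairs with ARNT and binds DNA at a short core sequence. Its targets raise glucose import, glycolysis and lactate export, hold pyruvate back from mitochondria, remove mitochondria, and signal to blood vessels. Glycolytic enzymes are also driven by MYC and growth factor signalling and are high in most cultured carcinoma lines, whereas genes such as Car9, Adm and Ankrd37 depend more closely on oxygen. Fast-growing 4T1 tumours commonly contain poorly perfused regions. In whole-tumour RNA, fewer cells of a type and less RNA per cell cannot be told apart, and a hypoxic region counts only by its share of the tissue.

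Total expected counts per library lay between 13323171 and 16809705, and 15902 to 16766 genes were above 0. Levels of a single gene are given below as CPM, read counts per library size after TMM scaling, and comparisons between genes use the deposited FPKM, which is scaled for transcript length. The 8 epithelial markers of 4T1 were above 0 in every library except for Cldn7, at 0 in combination replicate 1, DSF replicates 1 and 3 and control replicate 2. Their summed level was 955 to 1303 CPM in combination tumours, 1285 to 1375 CPM in DSF tumours, 963 to 1233 CPM in anti-PD-1 tumours and 1128 to 1226 CPM in control tumours. Several libraries stood apart by markers of other tissues. DSF replicate 2 had 10626 CPM summed over 10 adipocyte markers, against 62.8 to 610.3 CPM in the other 11 libraries. The 17 skin and hair follicle markers summed to 1106, 6293 and 3360.4 CPM in combination tumours, against 121 to 263 CPM in DSF tumours, 123 to 1180 CPM in anti-PD-1 tumours and 290.1 to 595 CPM in control tumours. Some of the results that rest on these libraries are also given without them.

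The most abundant members were glycolytic enzymes. Over 12 libraries Gapdh, glyceraldehyde-3-phosphate dehydrogenase, averaged 3723 FPKM, Aldoa, the main aldolase, 1732 FPKM, Pkm, pyruvate kinase, 1483 FPKM, and Ldha, which turns pyruvate into lactate, 1369 FPKM. Of the 18 other HIF targets the most abundant was Ndrg1, a stress-induced gene, at 306 FPKM, followed by the mitophagy receptor Bnip3 at 167 FPKM and the prolyl hydroxylase Egln3 at 121 FPKM. The lowest member was Slc2a3, the glucose transporter GLUT3, at 3.28 FPKM, while its relative Slc2a1, GLUT1, reached 169 FPKM. Within single genes the widest spread belonged to Adm, which encodes the vasodilator peptide adrenomedullin, with a 9.35-fold range of CPM over 12 libraries. The narrowest was Slc16a3, the lactate exporter MCT4, with a 1.39-fold range. The within-group SD of log2 CPM was 0.83 for Adm, 0.60 for Car9, 0.51 for Hilpda and 0.50 for Vegfa, against 0.13 for Tpi1 and 0.14 for Ldha and a median of 0.21 over all tested genes. Both classes held steady and variable genes. Among other HIF targets the SD was 0.15 for Mxi1 and 0.16 for Egln1, and among glucose metabolism genes 0.47 for Pfkfb3 and 0.39 for Slc2a1. A fold change of a given size therefore carries a different error in each gene.

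The arms stood in one order for most members. Group means were highest in DSF tumours for 34 of 38 genes and lowest in combination tumours for 34 of 38. The exceptions at the top were Slc2a3, Hk1 and Pdk1, highest with anti-PD-1 alone, and Gbe1, highest in controls; those at the bottom were Pfkp, Pfkfb4, Egln3 and Ak4, lowest in controls. The mean of log2 CPM centred on each gene, taken over all 38 members, was -0.33 ± 0.16 in combination tumours, 0.29 ± 0.09 in DSF tumours, 0.09 ± 0.17 in anti-PD-1 tumours and -0.05 ± 0.28 in control tumours (SD, n = 3). Single tumours carried much of this. Combination replicate 2 was the lowest of 12 libraries for 25 members and control replicate 3 for 7, while DSF replicate 1 was the highest for 21. For the 18 other HIF targets the score was -0.31, -0.63 and -0.37 in combination tumours, 0.45, 0.31 and 0.48 in DSF tumours, -0.20, 0.30 and 0.16 in anti-PD-1 tumours, and 0.14, 0.15 and -0.47 in control tumours. Combination and DSF tumours did not overlap in it, and control replicate 3 lay inside the range of the combination tumours. For the 20 glucose metabolism genes the score spanned -0.40 to -0.10 in combination tumours and 0.11 to 0.32 in DSF tumours, without overlap, and -0.28 to 0.15 in control tumours, which overlapped with both.

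**Figure D1:**
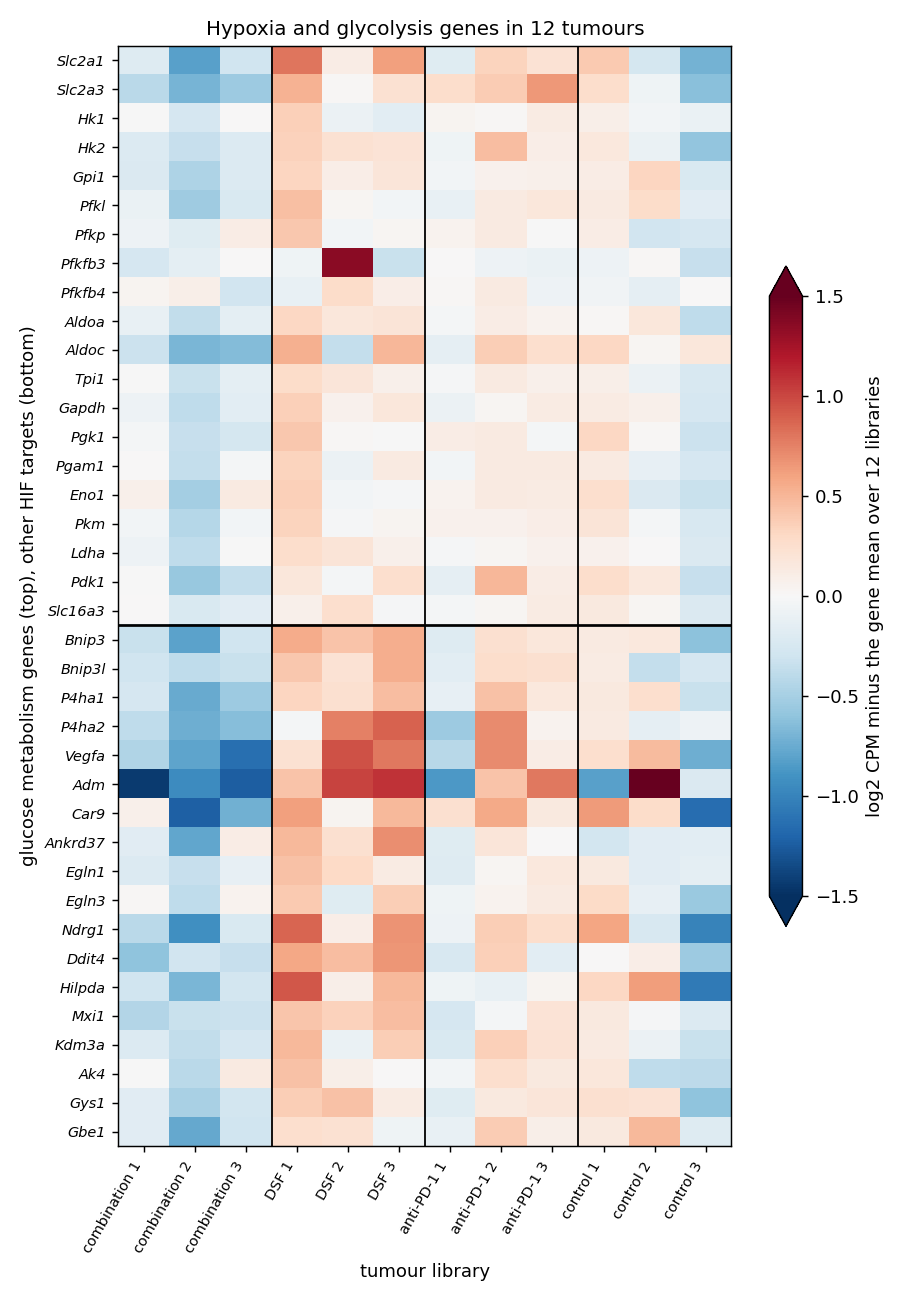
Colour gives log2 CPM minus the gene's mean over 12 libraries for the 20 glucose metabolism genes (above the line) and the 18 other HIF targets (below it), with 1 column per tumour; the scale is capped at 1.5 in each direction. Combination replicate 2 and control replicate 3 are blue for most genes, DSF replicate 1 is red for most, and the dark red cell in the Pfkfb3 row is DSF replicate 2.

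The comparison of the combination with DSF alone asks what changed when anti-PD-1 was added to the drug, and it is the one in which members passed the test. The mitophagy receptors Bnip3 and Bnip3l, the stress gene Ddit4, the collagen prolyl hydroxylase P4ha1 and the MYC antagonist Mxi1 were lower in combination tumours. These 5 of 38 members were called by edgeR's quasi-likelihood test at a Benjamini-Hochberg adjusted p under 0.05, and 0 were called higher. Over all 14144 genes, 1.86% were called, and 0.255% were called lower. All 5 are among the 18 other HIF targets, and 0 of the 20 glucose metabolism genes were called, with a lowest adjusted p of 0.0717.

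Mxi1, which encodes a MAX-binding repressor that opposes MYC, had 58.2, 62.4 and 62.9 CPM in combination tumours, against 105, 100.2 and 109 CPM in DSF tumours. The groups lay far apart relative to the spread within either, and the log2 fold change was -0.78 (SE 0.12, adjusted p = 0.0387). Ddit4, also called REDD1, which restrains mTORC1, had 19.6, 24.4 and 23.4 CPM in combination tumours, against 44.1, 40.7 and 47.1 CPM in DSF tumours. Its log2 fold change was -0.97 (SE 0.19, adjusted p = 0.0416), again with no overlap. Bnip3l, also called NIX, had 248, 234 and 242 CPM with the combination, against 405, 353 and 446 CPM with DSF, a log2 fold change of -0.73 (SE 0.15, adjusted p = 0.0416). Bnip3 had 199, 144 and 203 CPM with the combination, against 368, 338 and 367 CPM with DSF, a log2 fold change of -0.97 (SE 0.21, adjusted p = 0.0433). Both genes mark mitochondria for autophagy, and for both the highest combination tumour lay below the lowest DSF tumour. P4ha1, which hydroxylates collagen prolines, had 190.3, 134 and 155 CPM in combination tumours, against 284, 268 and 311 CPM in DSF tumours, a log2 fold change of -0.85 (SE 0.18, adjusted p = 0.0453). Its spread was wider in combination tumours, with replicate 2 lowest.

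The 5 calls depended on which libraries shared the fit. Leaving out DSF replicate 1 or 3, combination replicate 2 or 3, anti-PD-1 replicate 3, or control replicate 1 or 2 left 0 members called, while leaving out combination replicate 1 left 2, control replicate 3 left 4, DSF replicate 2 or anti-PD-1 replicate 2 gave 7, and anti-PD-1 replicate 1 gave 8. A fit of these 2 arms alone called 0 members, and limma called the same 5. With a replicate block, or with skin and adipocyte scores as covariates, 0 members were called. Calls over all genes without each library are not given, so these counts are not a result particular to the members.

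HIF binds a core that reads ACGTG or GCGTG. Promoter sequence is shown for called members with a window and for Adm, Pgk1 and Ldha, which were not called. RefSeq windows of 250 bases upstream of annotated starts on GRCm38.p6 were matched by gene identifier for 35 of 38 members, several with more than 1 window. Bnip3l, Ndrg1 and Slc2a3 had none. ACGTG stood on either strand in 21 of the 35, against 22.1% of 14417 genes of the table with a window. GCGTG stood in 23 (65.7%), against 42.5%, and either in 31 (88.6%), against 53.3%. ACGTG was found for 9 of 19 glucose metabolism genes and 12 of 16 other HIF targets. A CACGTG palindrome counts as a pair of overlapping ACGTG matches, 1 on each strand. A match describes letters only and is not a site of binding. The windows below run 5′ to 3′ on the strand of the gene, capitals mark either core or, where the core is on the opposite strand, its complement CACGT or CACGC. Bnip3, Ddit4, P4ha1 and the second window of Mxi1 belong to genes that were called. The first Mxi1 window, not shown, holds neither core, and the third, not shown, holds 1 ACGTG. Ldha had the most ACGTG matches of any member (5), Pgk1 is the textbook glycolytic HIF target, and Adm, with the largest change, holds GCGTG only. Gpi1, Tpi1, Gys1 and Gbe1, not shown, held neither core.
Mxi1, GRCm38.p6 chr19:53329163-53329412, plus strand: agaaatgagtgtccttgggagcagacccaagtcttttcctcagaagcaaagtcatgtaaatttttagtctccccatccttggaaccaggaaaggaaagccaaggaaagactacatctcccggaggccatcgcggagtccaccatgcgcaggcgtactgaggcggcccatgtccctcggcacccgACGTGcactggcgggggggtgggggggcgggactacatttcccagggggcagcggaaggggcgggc
Ddit4, GRCm38.p6 chr10:59951771-59952020, minus strand: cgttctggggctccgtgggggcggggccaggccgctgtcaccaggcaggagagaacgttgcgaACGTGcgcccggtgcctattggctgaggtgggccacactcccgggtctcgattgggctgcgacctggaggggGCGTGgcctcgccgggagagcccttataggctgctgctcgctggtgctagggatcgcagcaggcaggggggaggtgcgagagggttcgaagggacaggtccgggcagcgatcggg
Bnip3, GRCm38.p6 chr7:138909507-138909756, minus strand: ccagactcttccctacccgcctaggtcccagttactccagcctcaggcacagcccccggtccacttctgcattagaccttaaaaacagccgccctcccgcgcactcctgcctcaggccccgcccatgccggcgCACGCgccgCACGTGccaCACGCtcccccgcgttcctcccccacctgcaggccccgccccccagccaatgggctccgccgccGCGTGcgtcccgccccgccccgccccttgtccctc
P4ha1, GRCm38.p6 chr10:59323046-59323295, plus strand: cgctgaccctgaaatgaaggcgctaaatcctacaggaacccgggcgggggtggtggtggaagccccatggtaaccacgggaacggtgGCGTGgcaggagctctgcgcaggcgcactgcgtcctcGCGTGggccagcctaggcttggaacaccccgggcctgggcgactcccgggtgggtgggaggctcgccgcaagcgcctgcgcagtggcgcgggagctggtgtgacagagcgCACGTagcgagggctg
Adm, GRCm38.p6 chr7:110627407-110627656, plus strand: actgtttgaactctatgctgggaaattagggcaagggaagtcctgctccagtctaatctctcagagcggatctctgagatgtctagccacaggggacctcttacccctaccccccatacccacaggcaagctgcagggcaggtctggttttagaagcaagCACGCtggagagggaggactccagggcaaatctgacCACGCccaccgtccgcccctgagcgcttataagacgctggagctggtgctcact
Pgk1, GRCm38.p6 chrX:106186850-106187099, plus strand: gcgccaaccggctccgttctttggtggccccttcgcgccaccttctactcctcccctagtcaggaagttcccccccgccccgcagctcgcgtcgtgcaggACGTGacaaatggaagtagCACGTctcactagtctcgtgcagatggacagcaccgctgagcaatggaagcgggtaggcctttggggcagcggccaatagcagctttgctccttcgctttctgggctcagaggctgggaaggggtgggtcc
Ldha, GRCm38.p6 chr7:46845554-46845803, plus strand: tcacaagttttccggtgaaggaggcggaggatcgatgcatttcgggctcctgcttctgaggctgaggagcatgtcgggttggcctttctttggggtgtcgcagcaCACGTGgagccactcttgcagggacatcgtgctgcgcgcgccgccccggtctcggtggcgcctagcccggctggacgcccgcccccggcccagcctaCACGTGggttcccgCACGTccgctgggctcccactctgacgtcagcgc

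Among the vascular signals of the same comparison, values were further apart but the tumours less alike, and neither gene was called. Adm had 5.66, 7.95 and 6.49 CPM in combination tumours, against 20.7, 31.1 and 32.6 CPM in DSF tumours, a log2 fold change of -2.07 (SE 0.62, adjusted p = 0.0981). Vegfa, the growth factor that draws in blood vessels, had 49.5, 39.0 and 30.8 CPM in combination tumours, against 78.7, 130.2 and 117 CPM in DSF tumours, a log2 fold change of -1.45 (SE 0.35, adjusted p = 0.0581). Neither pair of groups overlapped. P4ha2, a second collagen prolyl hydroxylase, had 30.2, 23.8 and 25.3 CPM with the combination, against 38.7, 66.7 and 73.0 CPM with DSF, and its log2 fold change was -1.17 (SE 0.30, adjusted p = 0.0667). Ndrg1 had 581, 406 and 657 CPM with the combination, against 1413, 825 and 1234 CPM with DSF, with a log2 fold change of -1.08 (SE 0.35, adjusted p = 0.125). The oxygen sensor Egln1, which marks HIF-alpha for degradation and is itself a HIF target, averaged 115 ± 8.84 CPM with the combination and 164 ± 17.4 CPM with DSF (SD, n = 3 each; adjusted p = 0.0581). Its relative Egln3 averaged 279 ± 44.2 CPM with the combination and 345 ± 73.0 CPM with DSF, with overlapping tumours. Car9, a cell-surface carbonic anhydrase widely used as a hypoxia marker, averaged 57.7 ± 26.9 CPM with the combination and 109 ± 21.9 CPM with DSF, and combination replicate 1, at 87.5 CPM, lay above DSF replicate 2, at 84.7 CPM. Hilpda, which blocks lipid droplet breakdown, had 50.1, 38.3 and 50.7 CPM with the combination, against 117, 65.6 and 85.9 CPM with DSF, without overlap. The glycogen enzymes Gys1 and Gbe1, the histone demethylase Kdm3a and the HIF-induced ankyrin repeat gene Ankrd37 were also lower in every combination tumour than in any DSF tumour, with log2 fold changes of -0.62, -0.53, -0.55 and -0.71 that missed the threshold. Ak4, a mitochondrial adenylate kinase, differed least of the 18, at -0.26.

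The glucose metabolism genes had the same sign with smaller values. The transporter Slc2a1 had 336, 218 and 310.2 CPM in combination tumours, against 669, 413 and 586 CPM in DSF tumours, a log2 fold change of -0.95 (SE 0.28, adjusted p = 0.0956). The lowest DSF tumour was above the highest combination tumour. Slc2a3 had 8.99, 7.29 and 8.16 CPM with the combination, against 17.1, 12.0 and 13.9 CPM with DSF (log2 fold change -0.81, SE 0.23, adjusted p = 0.0825). Hk2, the inducible hexokinase that traps glucose in the cell, had 91.1, 83.1 and 91.5 CPM with the combination, against 134, 123 and 121 CPM with DSF, whereas the constitutive Hk1 overlapped between arms, at 183 ± 18.1 CPM with the combination and 201 ± 40.9 CPM with DSF. Gpi1, glucose-6-phosphate isomerase, had 716, 602 and 722 CPM with the combination, against 1039, 895 and 940.3 CPM with DSF (log2 fold change -0.49, SE 0.13, adjusted p = 0.0736). Aldoc, the minor aldolase isoform, had 59.2, 45.9 and 47.1 CPM with the combination, against 107, 57.8 and 104 CPM with DSF (log2 fold change -0.82, SE 0.22, adjusted p = 0.0717), and DSF replicate 2 overlapped with the combination tumours. The most abundant glycolytic enzymes had smaller log2 fold changes. Gapdh averaged 3938 ± 419 CPM with the combination and 5215 ± 552 CPM with DSF, and Aldoa 1957 ± 190.3 CPM with the combination and 2637 ± 137 CPM with DSF (SD, n = 3 each). Ldha averaged 1761 ± 237 CPM with the combination and 2199.6 ± 140.4 CPM with DSF, and Pkm 2948 ± 431 CPM with the combination and 3584 ± 482 CPM with DSF. In these 4 enzymes the groups did not overlap, the log2 fold changes lay between -0.43 and -0.28, and none was called. Pfkl, Tpi1 and Pgk1, phosphoglycerate kinase, also had every combination tumour below every DSF tumour, at -0.45, -0.34 and -0.35 on the log2 scale, while Pfkp, the mutase Pgam1 and the exporter Slc16a3 overlapped, at -0.19, -0.25 and -0.23. Pfkfb3 and Pfkfb4, which make the fructose-2,6-bisphosphate that switches on phosphofructokinase, and Pdk1, which shuts pyruvate out of the citric acid cycle, were not called, and their groups overlapped, with log2 fold changes of -0.65, -0.14 and -0.43. The Pfkfb3 mean of 98.1 ± 66.6 CPM in DSF tumours rests on replicate 2, the tumour rich in adipocyte markers, at 174.7 CPM against 65.5 and 54.2 CPM in the other 2; without it the log2 fold change was 0.05. Eno1, an enolase, cannot be read on its own, because its near-identical copy Eno1b shares reads with it in these counts; the log2 fold changes were -0.18 for Eno1 and -0.18 for Eno1b. Other glycolytic enzymes have processed pseudogenes that could take reads in the same way.

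Counted over the list, 38 of 38 members had a log2 fold change below 0 for the combination against DSF, against 53.8% of all genes. Libraries of the 2 arms did not overlap, with the combination lower, for 26 of 38 members, against 10.8% of all genes, and these were 11 of 20 glucose metabolism genes and 15 of 18 other HIF targets. The median log2 fold change was -0.52 over members, against -0.02 over all genes, and it was -0.38 for glucose metabolism genes (0.769-fold) and -0.81 for other HIF targets (0.569-fold). Of the 38, 26 were lower at an unadjusted p under 0.05 (10 glucose metabolism genes and 16 other HIF targets), against 8.4% of all genes. The difference between the 2 classes was not tested, and members that respond to the same factor are not independent of each other. DESeq2 called 21 members in this comparison, all lower, and it called 1170 genes over all, against 263 by edgeR.

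**Figure D2:**
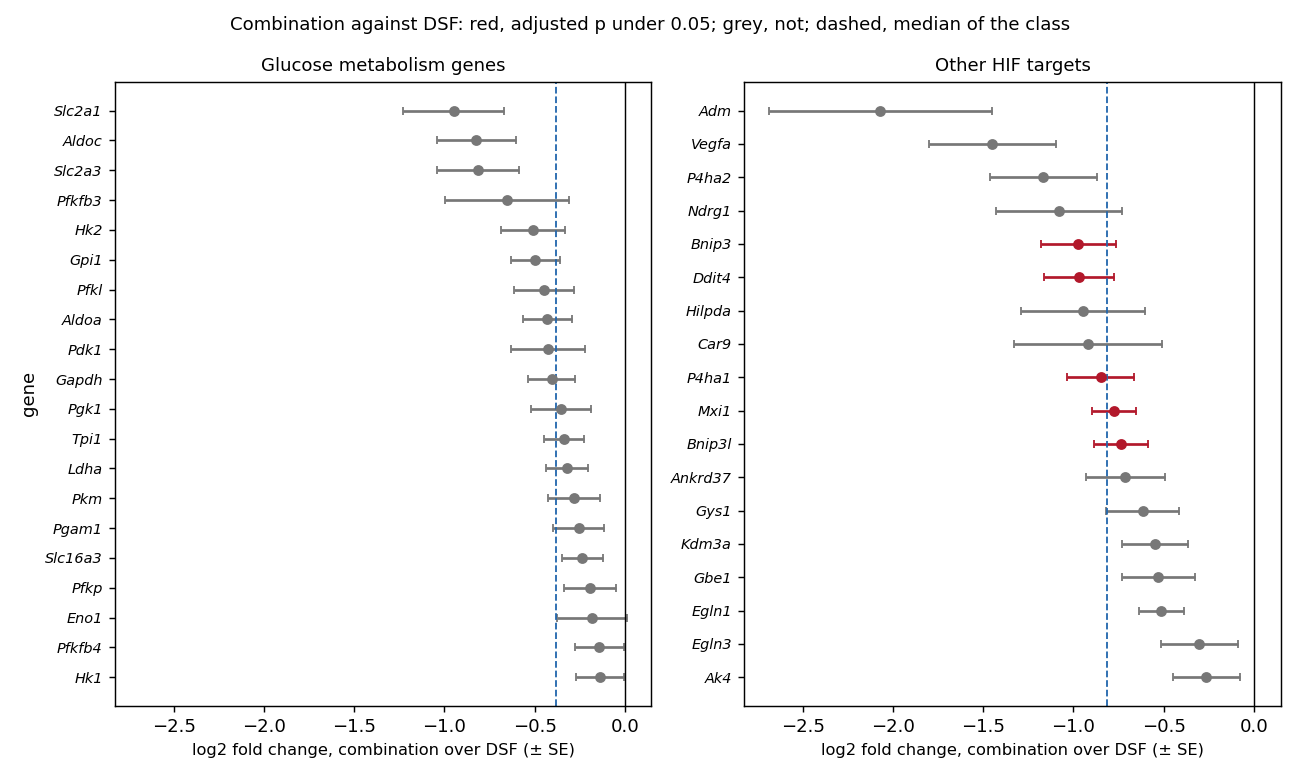
Points are log2 fold changes of the combination over DSF with their SE, for 20 glucose metabolism genes (left) and 18 other HIF targets (right), 3 tumours per arm. All 38 points lie below 0; the 5 genes in red passed an adjusted p under 0.05, and the dashed lines mark class medians of -0.38 and -0.81.

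**Figure D3:**
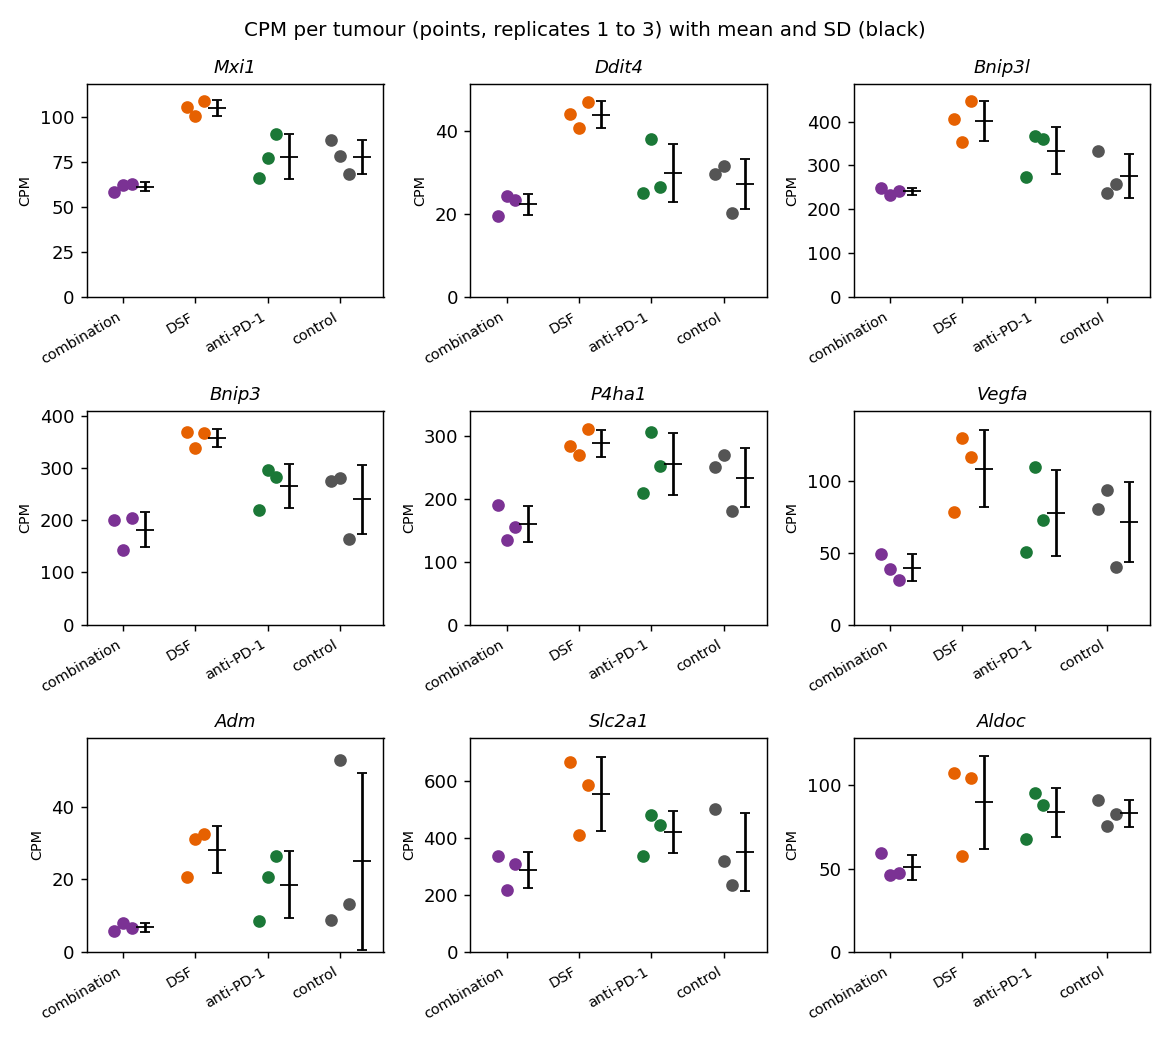
CPM of 9 members in each tumour (points) with group mean and SD (black), arms from combination to control along the horizontal axis. The combination and DSF points do not overlap for 8 of the 9 genes, Aldoc being the exception, and the single high control point of Adm is replicate 2.

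Markers of other cells moved with this comparison. The 14 neutrophil markers summed to 329 to 415 CPM in combination tumours, against 786 to 935 CPM in DSF tumours, and the skin markers given above ran the other way. The 7 T cell markers summed to 75.9 to 88.9 CPM in combination tumours and 34.7 to 45.2 CPM in DSF tumours, and the 10 macrophage markers to 3115 to 3587 CPM in combination tumours and 1571 to 3825 CPM in DSF tumours. The 10 endothelial markers, of the vessels that carry oxygen, summed to 211 to 313 CPM in combination tumours and 198 to 571 CPM in DSF tumours, with overlap. Among hair keratins, Krt25 was at 0 in DSF replicates 1 and 2, Krt27 in DSF replicates 1 and 3 and Krt71 in all 3 DSF tumours, against Krt25 and Krt27 in combination replicate 3 alone; Lor and Flg2 were at 0 in DSF replicate 3, and Camp, of the neutrophil list, in combination replicate 3. No other marker of these 5 lists was at 0 in these 6 tumours. Their part in the result was not tested. With skin and adipocyte marker scores as covariates, 28 of 38 members kept a log2 fold change below 0, 0 were called, and the medians were -0.20 for glucose metabolism genes and -0.22 for other HIF targets. All 3 combination tumours were above all 3 DSF tumours in skin markers, so the arm and these markers cannot be told apart here. Combination replicate 1, whose skin marker level of 1106 CPM was close to the 1180 CPM of anti-PD-1 replicate 1, had an other-HIF-target score of -0.31, against -0.20 in that anti-PD-1 tumour. The same tumours differed in neutrophil markers, at 367 against 762 CPM, and in macrophage markers, at 3364 against 2744 CPM. What set their scores was not tested. Leaving out DSF replicate 2 and combination replicate 2 together, a choice made after their marker levels were seen, left 37 of 38 members below 0, with 0 called.

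**Figure D4:**
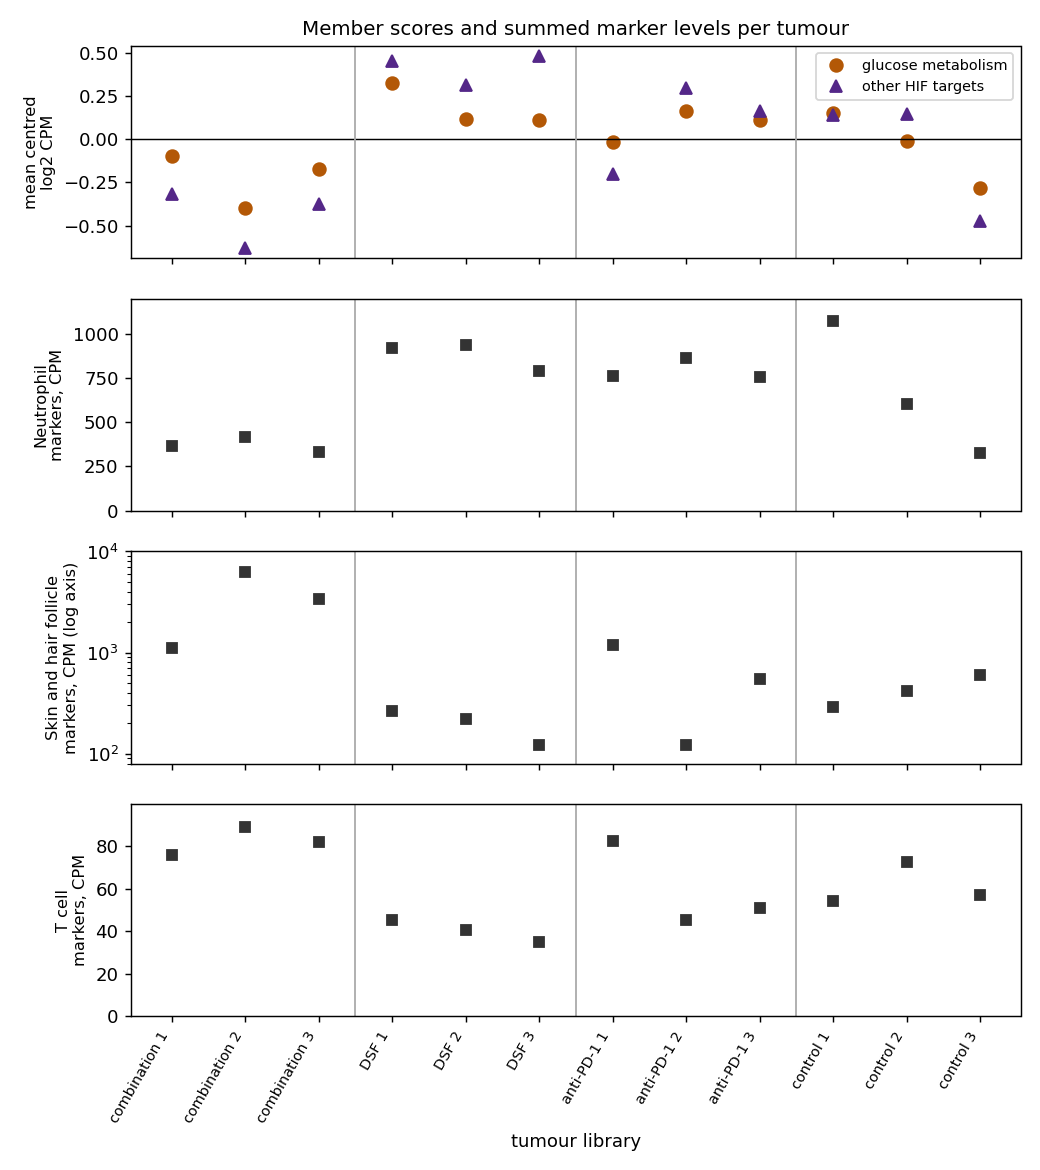
Upper panel, mean centred log2 CPM of glucose metabolism genes (circles) and other HIF targets (triangles) in each tumour; lower panels, summed CPM of neutrophil, skin and hair follicle (log axis) and T cell markers in the same tumours. Combination tumours and control replicate 3 have low scores and low neutrophil marker levels, and combination tumours have the highest skin marker levels apart from anti-PD-1 replicate 1.

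DSF alone was compared with control to ask what the drug did without antibody. By edgeR 0 of 38 members were called, as were 0% of all genes. Of the alternatives, limma called 0 members and DESeq2 1, Bnip3l, with DESeq2's calls over all genes not given. At an unadjusted p under 0.05, 9 members were higher, against 5.47% of all genes, and 37 of 38 had a log2 fold change above 0, against 55.6% of all genes. The median was 0.30 over members, against 0.03 over all genes, and 0.19 for glucose metabolism genes and 0.39 for other HIF targets. It moved to 0.15 without control replicate 3 and to 0.46 without control replicate 1, so its size rests on which control tumours are used. Bnip3l had 405, 353 and 446 CPM in DSF tumours, against 332, 238 and 257 CPM in control tumours, a log2 fold change of 0.54 (SE 0.15, adjusted p = 0.271). Mxi1 had 105, 100.2 and 109 CPM with DSF, against 86.9, 78.0 and 68.4 CPM in controls (0.43 on the log2 scale, SE 0.12, adjusted p = 0.272), and Ddit4 44.1, 40.7 and 47.1 CPM with DSF, against 29.7, 31.7 and 20.4 CPM in controls (0.69, SE 0.19, adjusted p = 0.272). In these 3 genes every DSF tumour was above every control tumour, as it was for Bnip3, Ankrd37, Aldoa, Ldha and Hk2, which makes 8 of 38 members against 5.07% of all genes. Slc2a1 averaged 556 ± 131 CPM with DSF and 352 ± 136 CPM in controls (SD, n = 3 each), with overlap, and differed by 0.66 on the log2 scale (SE 0.28, adjusted p = 0.449). Hk2 averaged 126 ± 6.83 CPM with DSF and 95.4 ± 24.1 CPM in controls (0.40, SE 0.18, adjusted p = 0.462), and Tpi1, triose phosphate isomerase, 911 ± 64.6 CPM with DSF and 764 ± 87.0 CPM in controls (0.25, SE 0.11, adjusted p = 0.466). The Pfkfb3 difference of 0.65 became -0.05 without DSF replicate 2. Neutrophil markers spanned 786 to 935 CPM with DSF and 325 to 1068 CPM in controls, and the control tumour lowest in them, replicate 3, was also lowest of the controls in both member scores. Lists that separated the arms were the T cell markers, at 34.7 to 45.2 CPM with DSF and 54.1 to 72.4 CPM in controls, the skin markers, at 121 to 263 CPM with DSF and 290.1 to 595 CPM in controls, and the epithelial markers of 4T1, at 1285 to 1375 CPM with DSF and 1128 to 1226 CPM in controls. With skin and adipocyte scores in the fit the median was 0.16 and 7 of 38 members changed sign; the part of the other lists in the result was not tested.

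Anti-PD-1 alone against control gave the smallest median difference of the 5 pairwise comparisons. By edgeR and by limma 0 of 38 members were called, by DESeq2 0, and 0% of all genes passed in the edgeR fit. Slc2a3 alone was higher at an unadjusted p under 0.05, 1 of 38 against 0.94% of all genes, and it alone was without overlap, against 2.86% of all genes. It had 14.3, 15.4 and 18.6 CPM in anti-PD-1 tumours, against 14.2, 11.4 and 7.71 CPM in control tumours, with a gap narrower than the spread in either group (log2 fold change 0.54, SE 0.23, adjusted p = 0.999). Hk2 averaged 119 ± 23.3 CPM with anti-PD-1 and 95.4 ± 24.1 CPM in controls (0.32, SE 0.18), and Pfkp, the platelet-type phosphofructokinase, 336 ± 16.6 CPM with anti-PD-1 and 293 ± 47.6 CPM in controls (0.20, SE 0.14). Among other HIF targets Bnip3l averaged 334 ± 52.9 CPM with anti-PD-1 and 276 ± 49.9 CPM in controls (0.28, SE 0.15). Ak4 averaged 67.1 ± 6.79 CPM with anti-PD-1 and 54.3 ± 12.7 CPM in controls (0.31, SE 0.19), and Kdm3a 133 ± 26.9 CPM with anti-PD-1 and 115 ± 18.6 CPM in controls (0.22, SE 0.18). All 5 overlapped between the arms, with an adjusted p of 0.999. Log2 fold changes were above 0 for 33 of 38 members, against 50.5% of all genes, with a median of 0.13, against 0.00 over all genes. Without control replicate 3 the median was -0.02, so the sign of this small shift is set by 1 control tumour.

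The combination against control asks for the net change under both treatments. By edgeR 0 of 38 members were called, with 0% of all genes. Of the alternatives, limma called 0 and DESeq2 1, Adm, with DESeq2's calls over all genes not given. There were 8 members lower at an unadjusted p under 0.05, against 4.4% of all genes, and 34 of 38 had a log2 fold change below 0, against 47.4% of all genes. The median was -0.21, and it ran to -0.06 without control replicate 1 and to -0.35 without control replicate 3. Without combination replicate 2, 7 of 38 members changed sign. Adm had 5.66, 7.95 and 6.49 CPM in combination tumours, against 8.71, 52.9 and 13.2 CPM in control tumours, and its log2 fold change of -1.90 (SE 0.62, adjusted p = 0.306) became -0.70 without control replicate 2. Every combination tumour was nevertheless below every control tumour. Mxi1 had 58.2, 62.4 and 62.9 CPM with the combination, against 86.9, 78.0 and 68.4 CPM in controls (-0.35 on the log2 scale, SE 0.12, adjusted p = 0.328), and P4ha1 averaged 159.7 ± 28.5 CPM with the combination and 233 ± 47.2 CPM in controls (-0.55, SE 0.18, adjusted p = 0.319). Of the glucose genes, Aldoc had 59.2, 45.9 and 47.1 CPM with the combination, against 91.5, 75.4 and 83.0 CPM in controls (-0.71 on the log2 scale, SE 0.22, adjusted p = 0.284). Gpi1 averaged 679.8 ± 67.7 CPM with the combination and 883 ± 164 CPM in controls (-0.38, SE 0.13, adjusted p = 0.339), and Pfkl, the liver-type phosphofructokinase, 306 ± 45.8 CPM with the combination and 396 ± 60.5 CPM in controls (-0.37, SE 0.17, adjusted p = 0.431). Members without overlap numbered 4, Aldoc, Adm, Mxi1 and P4ha2, against 7.8% of all genes. T cell markers spanned 75.9 to 88.9 CPM with the combination and 54.1 to 72.4 CPM in controls, and skin markers 1106 to 6293 CPM with the combination and 290.1 to 595 CPM in controls. With skin and adipocyte scores as covariates 14 of 38 members changed sign, and the median of the other HIF targets turned to 0.082; the part of the T cell markers was not tested.

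The combination against anti-PD-1 asks what DSF added to the antibody. All 38 members had a log2 fold change below 0, against 48.4% of all genes, with a median of -0.35, against 0.01 over all genes. By edgeR, however, 0 were called, with 0% of all genes. Of the alternatives, limma called 0 and DESeq2 1, Slc2a3, with DESeq2's calls over all genes not given. Lower at an unadjusted p under 0.05 were 14 members, against 3.99% of all genes, and 19 of 38 did not overlap, against 10.1%. Slc2a3 had 8.99, 7.29 and 8.16 CPM in combination tumours, against 14.3, 15.4 and 18.6 CPM in anti-PD-1 tumours, a log2 fold change of -0.98 (SE 0.23, adjusted p = 0.413). Aldoc averaged 50.7 ± 7.36 CPM with the combination and 83.8 ± 14.5 CPM with anti-PD-1, a log2 fold change of -0.72 (SE 0.22, adjusted p = 0.413). Hk2 averaged 88.5 ± 4.74 CPM with the combination and 119 ± 23.3 CPM with anti-PD-1 (-0.43, SE 0.18, adjusted p = 0.448). No tumour of the 2 arms overlapped in these 3 glucose metabolism genes. P4ha1 had 190.3, 134 and 155 CPM with the combination, against 208, 306 and 252 CPM with anti-PD-1 (log2 fold change -0.68, SE 0.18, adjusted p = 0.413). Bnip3l averaged 241 ± 7.32 CPM with the combination and 334 ± 52.9 CPM with anti-PD-1 (-0.47, SE 0.15, adjusted p = 0.413), and Mxi1 61.2 ± 2.56 CPM with the combination and 77.9 ± 12.3 CPM with anti-PD-1 (-0.35, SE 0.12, adjusted p = 0.414). All 3 of these HIF targets were lower in every combination tumour. Without combination replicate 2 the median of the glucose metabolism genes was -0.14, against -0.23 with it, and with the marker scores as covariates the median over members was -0.13. Neutrophil markers spanned 329 to 415 CPM with the combination and 755 to 862 CPM with anti-PD-1, and macrophage markers 3115 to 3587 CPM with the combination and 1900 to 2744 CPM with anti-PD-1, both without overlap; their part in the result was not tested.

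Whether DSF acted differently with and without the antibody was tested as the interaction, which is the log2 fold change of the combination over anti-PD-1 less that of DSF over control. By edgeR 0 of 38 members were called, with 0% of all genes and a lowest adjusted p of 0.259. Of the alternatives, limma called 0 and DESeq2 6, namely Bnip3, Bnip3l, Ddit4, Mxi1, P4ha1 and Slc2a3. DESeq2's calls over all genes are not given here, so its 6 are not a result particular to the members. All 38 interaction terms were below 0, against 52.5% of all genes, with a median of -0.62 over members (-0.43 for glucose metabolism genes, -0.95 for other HIF targets), against -0.02 over all genes. Of these, 21 had an unadjusted p under 0.05, against 5.35% of all genes. The DSF against control and combination against anti-PD-1 comparisons share no tumours, and members lay above 0 in the first (37 of 38) and below 0 in the second (38 of 38). For Bnip3l the change was 0.54 without the antibody and -0.47 with it, an interaction of -1.01 (SE 0.21, adjusted p = 0.259). For Mxi1 the interaction was -0.78 (SE 0.17, adjusted p = 0.259), for Ddit4 -1.11 (SE 0.27, adjusted p = 0.259), for Slc2a3 -1.35 (SE 0.32, adjusted p = 0.259), for Hk2 -0.83 (SE 0.25, adjusted p = 0.272) and for Slc2a1 -1.21 (SE 0.39, adjusted p = 0.292). The median moved to -0.36 when control replicate 3 and combination replicate 2 were both left out, a choice made after the levels were seen, and to -0.29 with the marker scores as covariates.

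**Figure D5:**
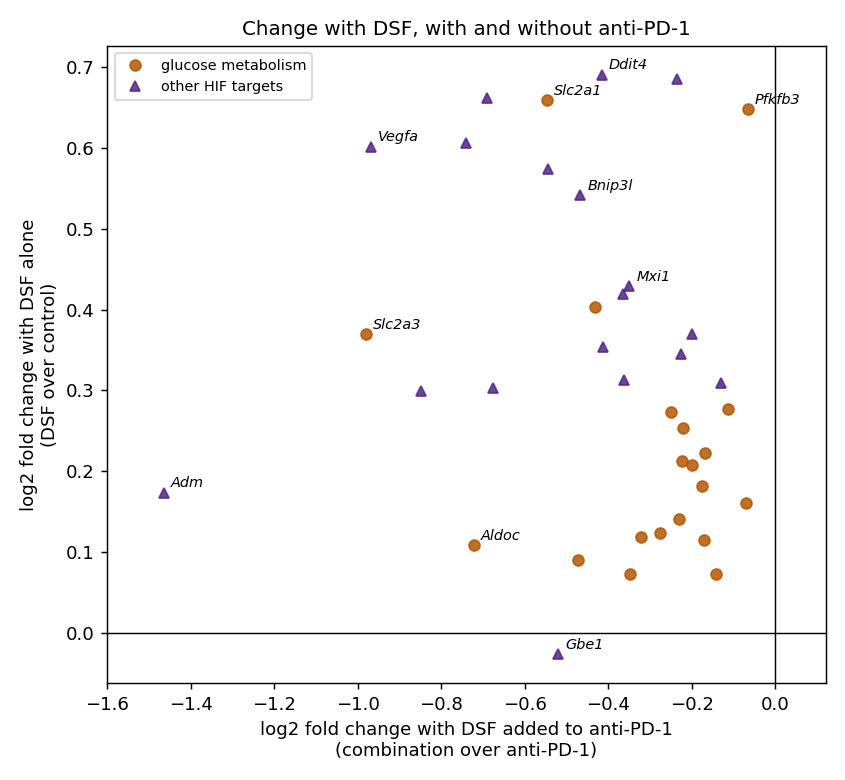
Each point is a member, with its log2 fold change for DSF over control on the vertical axis and for the combination over anti-PD-1 on the horizontal axis; circles are glucose metabolism genes and triangles other HIF targets. All points except Gbe1 lie above 0 vertically, and all lie left of 0 horizontally.

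Averaged over both levels of the other treatment, DSF shifted the members by a median of -0.01, with 0 of 38 called by edgeR, 0% of all genes, and 0 at an unadjusted p under 0.05, against 8.15% of all genes in either direction; limma and DESeq2 also called 0. Anti-PD-1 averaged the same way gave 36 of 38 members below 0, against 52.7% of all genes, with a median of -0.23 and 0 called by edgeR, 0% of all genes, while limma called 0 and DESeq2 1, Mxi1. Below 0 at an unadjusted p under 0.05 were 11 members, against 3.54% of all genes. With skin and adipocyte scores as covariates 16 of 38 members changed sign and the median was -0.021. The smallest p among members belonged to Mxi1 (-0.39 on the log2 scale, SE 0.08, adjusted p = 0.160), followed among other HIF targets by Ddit4 at -0.42 and Adm at -1.25, and among glucose metabolism genes by Gpi1 at -0.27. A test of any difference among the 4 arms called 0 members by edgeR, with 0% of all genes, 0 by limma and 11 by DESeq2. DESeq2's calls over all genes are not given here, so its 11, and Mxi1 above, are not a result particular to the members. In the edgeR fit 16 members had an unadjusted p under 0.05, against 13.2% of all genes.

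The regulators that sit above these targets come next. Of 10 HIF subunits and oxygen sensors 9 were abundant enough to test, and edgeR called 0 in any comparison; for the combination against DSF 3 of 9 had an unadjusted p under 0.05, 2 lower and 1 higher, against 18.9% of all genes in either direction. Hif1a, the oxygen-labile alpha subunit, which is controlled mainly at the protein level, had 350.3, 316 and 288 CPM in combination tumours, 381, 361 and 338 CPM in DSF tumours, 306, 331 and 345 CPM in anti-PD-1 tumours and 329.8, 290.0 and 229 CPM in control tumours. It was higher in every DSF tumour than in any control tumour (log2 fold change 0.35, SE 0.13, adjusted p = 0.393) and overlapped between the combination and DSF (-0.18, SE 0.13, adjusted p = 0.492). Its partner Arnt had 92.5, 88.0 and 89.4 CPM with the combination, against 128, 108 and 96.3 CPM with DSF, without overlap (-0.30, SE 0.11, adjusted p = 0.180). Arnt2, a relative of Arnt, had 1.31 to 3.14 CPM with the combination, against a mean of 0.748 ± 0.369 CPM (SD, n = 3) with DSF, without overlap (1.54, SE 0.47, adjusted p = 0.106). Epas1, which encodes HIF-2 alpha, averaged 57.2 ± 25.0 CPM with the combination and 55.3 ± 59.6 CPM with DSF, and DSF replicate 2 alone held 124 CPM. Hif3a stayed at or below 0.749 CPM and was not tested. The E3 ligase subunit Vhl, the asparaginyl hydroxylase Hif1an, the prolyl hydroxylase Egln2, the competing transactivator Cited2 and the ligase Siah2 had log2 fold changes for the combination over DSF of -0.13, 0.06, -0.03, -0.36 and -0.01.

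Of 28 other genes of glycolysis and pyruvate handling, 24 were tested and edgeR called 0 in any comparison. For the combination against DSF their median log2 fold change was -0.07, with 15 of 24 below 0, against 53.8% of all genes, and 3 of 24 at an unadjusted p under 0.05, against 18.9% of all genes in either direction. Of 39 further HIF targets, 37 were tested and 32 of 37 were below 0 for the combination against DSF, against 53.8% of all genes, with a median of -0.44. Of the 37, 16 were lower without overlap, against 10.8% of all genes, and 18 were lower at an unadjusted p under 0.05, against 8.4%. A single one was called, Ccng2, which encodes a cyclin linked to growth arrest, with 68.1, 54.6 and 67.5 CPM in combination tumours, against 117, 98.5 and 133 CPM in DSF tumours, a log2 fold change of -0.87 (SE 0.19, adjusted p = 0.0498). For DSF against control, 34 of these 37 were above 0, against 55.6% of all genes, 13 were higher at an unadjusted p under 0.05, against 5.47%, and 0 were called by edgeR. Every DSF tumour was above every control tumour for 9 of the 37, against 5.07% of all genes. Some other signs rested on DSF replicate 2, the tumour rich in adipocyte markers. In expected counts Lox had 255, 2434 and 536 with DSF, against 827, 1216 and 681 in controls. Vldlr had 18, 244 and 28 with DSF, against 36, 58 and 33 in controls. No count without that tumour is given for this list.

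The transcript table splits members by isoform. Of 38 members 11 had 1 transcript in the transcript table and 27 had 2 or more, and in 23 the leading transcript held at least 90% of the gene's summed FPKM. For Pkm the leading transcript held 93.2% ± 1.21 in combination tumours, 89.7% ± 1.58 in DSF tumours, 90.4% ± 2.36 in anti-PD-1 tumours and 92.8% ± 0.88 in control tumours (SD, n = 3). For Mxi1 the leading transcript held 87.8% ± 3.34 in combination tumours, against 81.1% ± 4.73 in DSF tumours, with overlap. These shares come from the submitters' estimates, whose own error the files do not give.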

How the data were processed

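RNA from 12 tumours was read on a BGISEQ-500 instrument, per the labels' protocols. The submitters' processing notes list DESeq2 1.4.5, RSEM 1.2.12, Bowtie2 2.2.5 and HISAT2 2.0.4 and give no roles. The genome build of the counts is not given in the sources used here, so genes carry symbols. Positions are given only for the RefSeq promoter windows, on GRCm38.p6. The authors deposited a gene table of expected counts (estimated reads per gene, of which 9.02% are not whole) and FPKM, and a transcript table whose FPKM gave transcript shares; deposited TPM and group means were not used. Groups come from the titles, and table columns were matched to them by group and number. One control column, whose name ends in 11, was read as control 1.

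Expected counts were rounded, filtered with filterByExpr given the 4 groups (14144 of 18433 genes kept), scaled by TMM and fitted with edgeR 4.0.16 (R 4.3.3) by quasi-likelihood, with 1 mean per arm over all 12 libraries. Tests were two-sided, Benjamini-Hochberg adjusted over all tested genes, and called under 0.05. The SE is the log2 fold change divided by the square root of F. The biological coefficient of variation was 0.277. The code was tested on simulated counts. Alternatives were limma 3.58.1 (log2 CPM, prior count 2), DESeq2 1.42.0, other scaling and filter settings, covariates, a replicate block, and leaving out libraries. Same-numbered combination and control tumours correlated at over 0.1 in all 3 pairs (0.11 to 0.27). For that comparison the replicate block left 0 members called, as without it, so no call could be lost. For the combination against DSF, with same-numbered correlations of 0.042 to 0.38, the block lost all 5 calls.

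Members and gene and marker lists were chosen with earlier results of these data known, so counts over them describe and do not test. All members are named; values with SE and adjusted p go to called members and, with fewer than 6 called, to the 3 of each class with the smallest p, and other genes with large or divergent values were added after they were seen. Deposited tables of sample correlations and principal components were left out.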

Additional observations from a re-analysis of the deposited data

How the results depend on the processing

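For the combination against DSF, 5 members were called, and 0 were called with only the 2 arms in the fit, with a replicate block, with skin and adipocyte scores as covariates, without DSF replicate 2 and combination replicate 2 together, and without control replicate 3 and combination replicate 2 together. Leaving out 1 library gave 0 to 8, counts given without the calls over all genes in those fits. DESeq2 called 21, limma and DESeq2 size factors 5, and no filter on low counts 4; the cause was not tested. In the other comparisons, where edgeR called 0, DESeq2 called 1 for DSF against control, 1 for the combination against control, 1 for the combination against anti-PD-1, 6 for the interaction, 1 for the main effect of anti-PD-1 and 11 for any difference, and all other alternatives called 0. These DESeq2 counts are given without its calls over all genes, so they are not a result particular to the members. Over all genes the combination against DSF had 263 calls by edgeR, 1170 by DESeq2, 387 by limma, 7 with the replicate block and 0 with covariates or both arms alone. All 38 members stayed below 0 in that comparison in every alternative except covariates (28), without DSF replicate 1 (37), without DSF replicate 2 (37) and without both replicates 2 (37). The median of other HIF targets for anti-PD-1 against control turned to -0.043 without control replicate 3 and to -0.045 without that library and combination replicate 2, with 0.26 as its highest value on leaving out 1 library (anti-PD-1 replicate 1), and for the combination against control it turned to 0.082 with covariates. Replicate numbers were not taken as pairs, since of 18 same-numbered pairs 10 correlated above 0.1, with a range of -0.37 to 0.46, and no label gives a shared batch. A number may still mark something shared, which was not tested: correlations were 0.042 to 0.38 between combination and DSF, 0.11 to 0.27 between combination and control, and above 0 in all 9 same-numbered pairs of these 3 arms, against 4 of 18 other pairs. Values were centred within each arm, so positive same-numbered pairs push the other pairs below 0, and these counts are not independent. Same-numbered correlations with anti-PD-1, left out of these counts, were -0.37 to 0.012 for the combination. They were -0.13 to 0.30 for DSF and -0.16 to 0.17 for control. The deposited FPKM gave the same sign as CPM for 186 of 190 ratios of group means. Joint leave-outs were chosen after seeing the data. A gene that was not called is not shown to be alike between arms.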

Other observations

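Within 3 of the 4 arms the tumour with the lowest score over the 18 other HIF targets was also the one with the highest skin and hair follicle marker level. Combination replicate 2 had a score of -0.63 and 6293 CPM of these markers, anti-PD-1 replicate 1 had -0.20 and 1180 CPM, and control replicate 3 had -0.47 and 595 CPM. In the DSF arm replicate 2 had the lowest score, 0.31, with 220 CPM, while replicate 1 had the highest skin level, 263 CPM. Macrophage markers showed the relation in all 4 arms, so it was not particular to skin markers. Within its arm, combination replicate 2 was highest in macrophage markers at 3587 CPM, and DSF replicate 2 at 3825 CPM. Anti-PD-1 replicate 1 was highest at 2744 CPM and control replicate 3 at 3915 CPM. These relations were seen in the values first and were not tested.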
